A study of Rattus norvegicus with 4 samples.

Results

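Synaptic vesicle and exocytosis genes encode the proteins that fill, tether, prime and fuse neurotransmitter vesicles. The set was a list of 43 named genes with these functions. Of these, 42 had a probe that could be named by its RefSeq accession, out of 8927 genes named on the array; Napb, the brain form of the SNARE disassembly adaptor alpha-SNAP, had none. The genes were measured in 4 cell samples from Fisher 344 rats: neural stem cells derived from the hippocampus, neural stem cells derived from the olfactory bulb, and the neurons obtained from each of these stem cell cultures. The series title gives both tissues as adult and names insulin biosynthesis as the subject. Each sample was 1 pool of total RNA from 3 independent experiments, labelled with Cy3 and hybridised to 1 Agilent 1-colour array, so there is no measured spread between cultures. The stem cell samples shared 1 slide and the neuron samples the other, so slide and cell state cannot be told apart.

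A synaptic vesicle is loaded with transmitter by a vesicular transporter, held near the active zone by synapsins and scaffold proteins, and primed by Munc13 and RIM proteins. Fusion is driven by the SNARE proteins syntaxin, SNAP-25 and VAMP, held in check by complexins and triggered when synaptotagmin binds calcium. NSF and its SNAP adaptors then take the SNARE complex apart. Most of these families have neuronal members and relatives that carry ordinary secretion and membrane traffic in many tissues, and immature neurons already express several of the neuronal members.

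Levels are the log2 signal of a gene's brightest probe minus the 75th percentile of that array, so 0 is the 75th percentile and -1 is a signal of 1 log2 unit less. Signals of different probes depend on the probe, so levels were compared between arrays. Signals were summed or ranked over genes only for the marker lists, where bright probes weigh most. In the counts, a gene is called higher or lower when the difference between 2 arrays is 1 log2 unit (2-fold) or more. Where 1 of the arrays was not well above background by the scanner software's own mark, the difference is a bound and is given as "at least". Probes printed 10 times on each array gave median standard deviations between spots of 0.071 to 0.12 log2 units, and of 0.13 to 0.23 among those that were well above background at levels below -3. These figures carry no variation from culture to culture.

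Of the 42 genes, 31 were well above background in hippocampal stem cells, 30 in olfactory bulb stem cells, 29 in hippocampal neurons and 31 in olfactory bulb neurons. The corresponding shares were 73.8%, 71.4%, 69.0% and 73.8%, against 64.9%, 66.0%, 72.3% and 77.3% of all named genes. On all 4 arrays 24 of the genes were well above background, and on none of them 7: the glycoprotein gene Sv2b, the Rab3 effector rabphilin Rph3a, the calcium sensor genes Syt2 and Syt7, the active zone genes Rims1 and Pclo, and the vesicular glutamate transporter Slc17a7. A further 4 genes, Sv2c, Syt1, Syt4 and Syt9, were well above background in both stem cell samples and in neither neuron sample, which is 9.52% of the set against 0.493% of all named genes. The opposite pattern held for 2 genes, Stx3 and Unc13b, which is 4.76% against 7.46%. Detection was complete for the SNAREs on both neuron arrays, while 4 of 9 synaptotagmins were detected there.

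**Figure D1:**
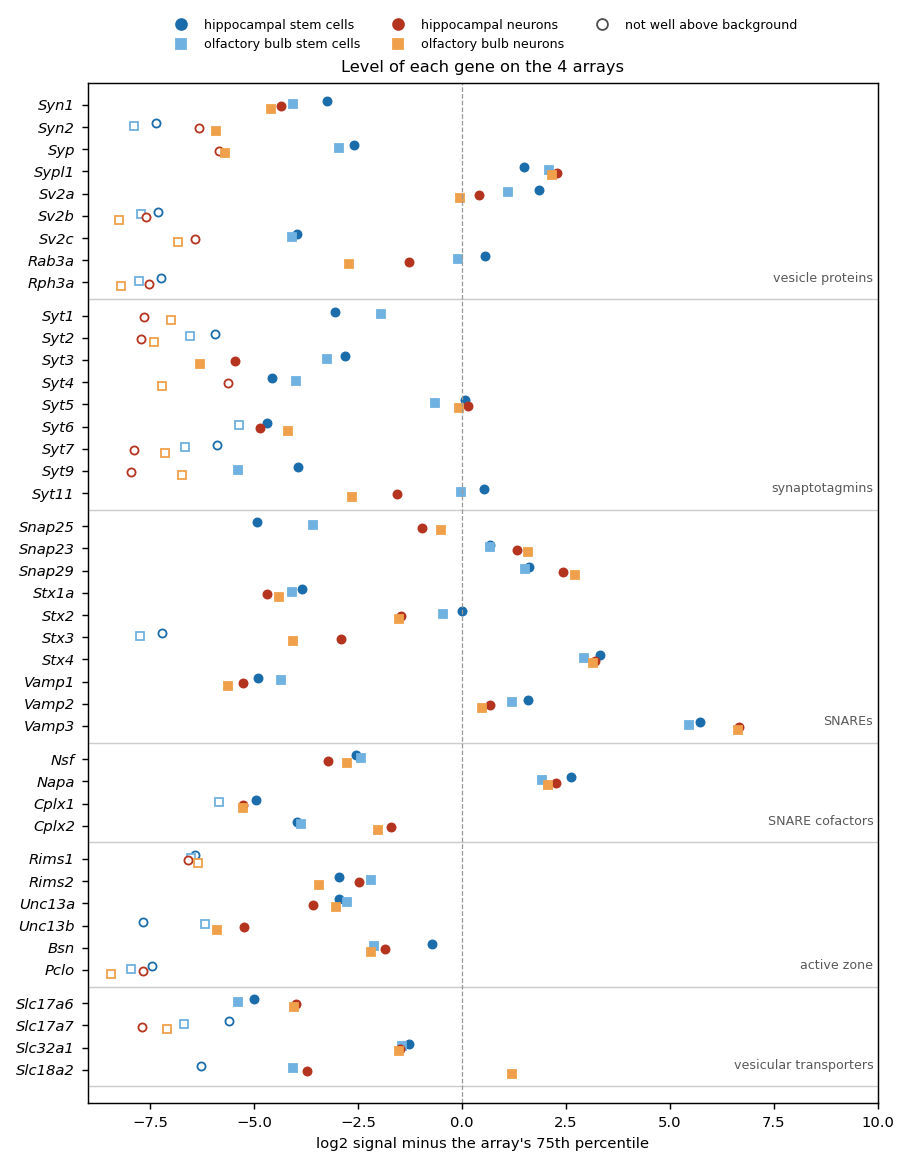
The level of each of the 42 genes on the 4 arrays (log2 signal minus the array's 75th percentile, horizontal axis), grouped by role, with 1 point per array and open points where the probe was not well above background. The stem cell points of most synaptotagmins lie to the right of the neuron points, while Snap25, Stx3 and Cplx2 lie the other way, and the olfactory bulb neuron point of Slc18a2 stands at 1.20, apart from the others at -3.72 or less.

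The first question was how these genes differed between neurons and the stem cells they came from. Genes for proteins on the vesicle and for calcium sensors were more often lower than higher on the neuron arrays, whereas Snap25, Stx3, Cplx2, Slc17a6 and Slc18a2 were higher in both sources. In hippocampal cells 5 of 34 genes compared were higher and 12 lower, which is 14.7% and 35.3% against a background of 21.9% and 26.8% of 6656 genes. In olfactory bulb cells 8 of 35 were higher and 12 lower, which is 22.9% and 34.3% against 26.9% and 20.0% of 7022 genes. Both sources shared 5 higher genes (14.7% of 34, against 18.5% of all genes) and 10 lower genes (29.4%, against 16.8%), and no gene was called in opposite directions (0.365% of all genes were). The median log2 difference was -0.35 in hippocampal and -0.07 in olfactory bulb cells, beside -0.32 and 0.08 over all genes.

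**Figure D2:**
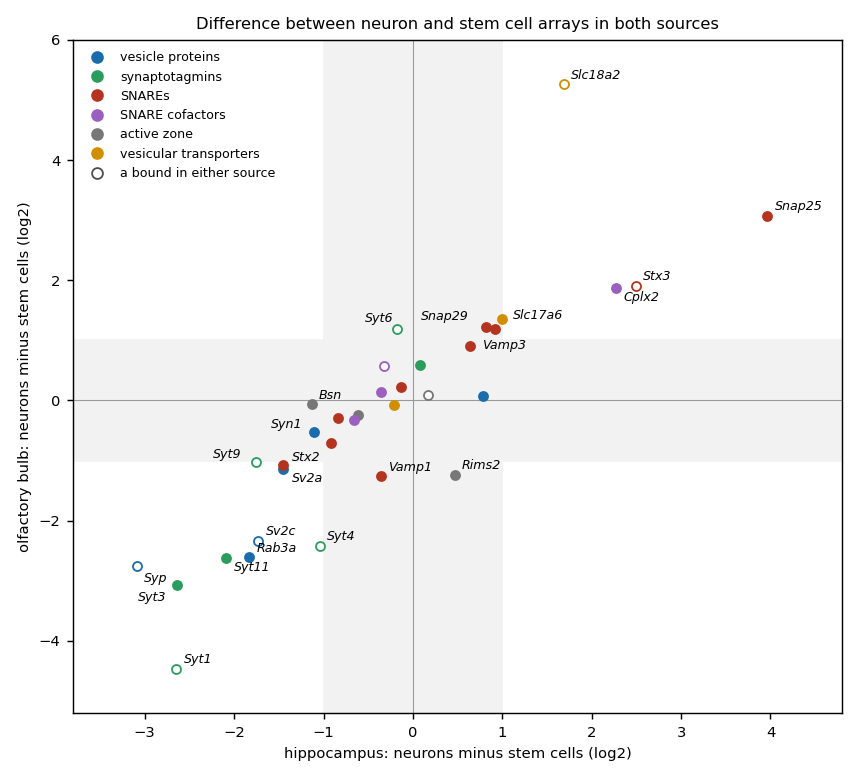
The difference between neurons and stem cells (log2) with hippocampal cells on the horizontal and olfactory bulb cells on the vertical axis, 1 point per gene, coloured by role, with open points for bounds and grey bands for differences under 1 log2 unit. The 10 genes lower in both sources lie at the lower left, the 5 higher in both at the upper right, and Rims2 is the point at 0.47 and -1.24.

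The split between higher and lower depended on how the arrays were scaled to each other. With median scaling, 4 were higher and 16 lower in hippocampal cells, and the olfactory bulb counts were 4 and 14; with scaling on the 7 spike-in probes, the counts were 9 and 9, and 2 and 19. The median of all genes moved with it, from -0.32 and 0.08 to -0.78 and -0.41 with median scaling and to 0.12 and -0.90 with spike-in scaling. An additive limma fit over the 4 arrays, with terms for source and state, takes the disagreement between the sources as its error and has 1 residual degree of freedom. It used the measured signal also where a probe was not well above background. It called 13 of 35 genes for state at an adjusted p under 0.05, with Benjamini-Hochberg adjustment over 7111 genes: 5 were higher and 8 lower in neurons, against 19.4% and 12.2% of all genes. Of the 13 genes, Snap25, Rab3a, Syt3 and Syt11 were called under each of the 8 alternative settings.

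The arrays labelled neurons also carried genes of other cell types, and in such bulk samples fewer cells of a type and less RNA per cell cannot be told apart. Of 10 neuron markers measured outside the set, 1 was higher and 4 lower in hippocampal neurons, and 2 and 6 in olfactory bulb neurons. Their summed signal, in multiples of each array's 75th percentile, was 137.2 and 90.5 in hippocampal and olfactory bulb stem cells and 26.6 and 16.0 in the corresponding neurons. The median log2 difference of the list was -0.35 in hippocampal and -2.05 in olfactory bulb cells, beside -0.32 and 0.08 over all genes. Bright probes weigh most in the summed signal. Picked out after their values were seen, Uchl1, Gap43 and Eno2 held the highest levels of the list in hippocampal stem cells (6.43, 4.67 and 4.11). Stmn2, picked in the same way, was higher in neurons by at least 5.83 and 5.01. All 6 pericyte and fibroblast markers were higher in both sources, with sums of 0.107 and 0.126 in stem cells and 375.2 and 514.2 in neurons. Astrocyte markers were higher for 7 of 8 genes in hippocampal and 8 of 8 in olfactory bulb cells. Their sums were 18.7, 28.3, 139.7 and 167.1 in the same order, and those of microglia and macrophage markers 0.445, 0.539, 1.26 and 2.58. Oligodendrocyte markers summed to 282.5, 188.4, 32.3 and 42.3, and neural stem and progenitor markers to 72.7, 60.7, 26.5 and 31.0. Sums of olfactory ensheathing and Schwann cell markers were 162.7, 92.6, 56.0 and 117.7, and of neuroendocrine markers 8.975, 7.902, 34.91 and 22.14. Among the defining neuron, astrocyte, pericyte and microglia markers, Map2, Tubb3, Gja1, Col1a2 and Cd68 were well above background on all 4 arrays. Pdgfrb, Gfap, Aqp4, Aif1 and C1qa were so on the neuron arrays only, and Rbfox3 had no named probe. The part of these cell types in the differences reported here was not tested.

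**Figure D3:**
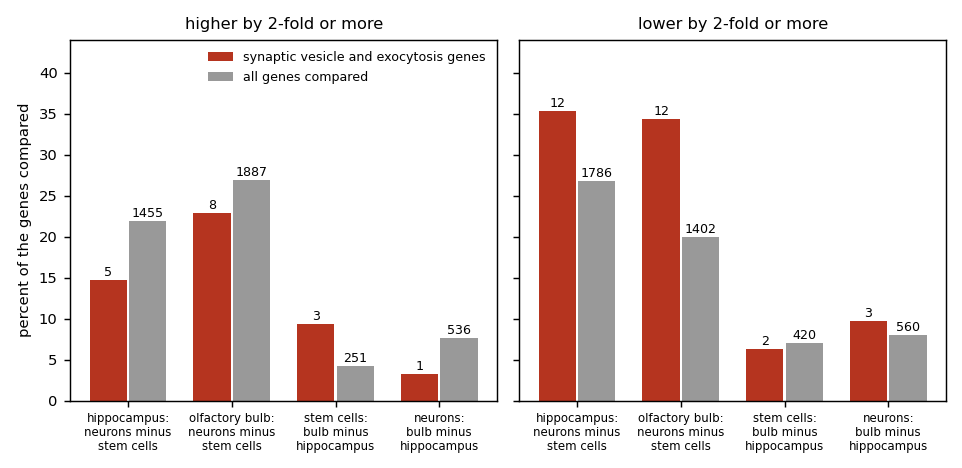
The percent of genes higher (left) or lower (right) by 2-fold or more in each of the 4 comparisons, for the synaptic vesicle and exocytosis genes (red) and for all genes compared (grey), with the number of genes above each bar. The largest gap is for lower genes in the olfactory bulb neurons, 34.3% against 20.0%.

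The stretch of DNA just before the transcription start is shown for 4 genes called in both sources, the vesicle protein gene Syp and the calcium sensor gene Syt1, which were lower in neurons, and the complexin gene Cplx2 and the monoamine transporter gene Slc18a2, which were higher; the hippocampal call of Slc18a2 depended on the setting. The sequences are RefSeq's for GRCr8, 250 bases upstream of the start, 5′ to 3′ along the gene. They lie at chrX:17536450-17536699, minus strand (Syp), chr7:46244214-46244463, minus strand (Syt1), chr17:10236754-10237003, minus strand (Cplx2) and chr1:268399771-268400020, plus strand (Slc18a2). Capitals mark matches on either strand to the GC box GGGCGG, the cyclic AMP response element TGACGTCA and its short core TGACG, which the full element contains; a TATA box, TATAAA, was also searched.
Syp: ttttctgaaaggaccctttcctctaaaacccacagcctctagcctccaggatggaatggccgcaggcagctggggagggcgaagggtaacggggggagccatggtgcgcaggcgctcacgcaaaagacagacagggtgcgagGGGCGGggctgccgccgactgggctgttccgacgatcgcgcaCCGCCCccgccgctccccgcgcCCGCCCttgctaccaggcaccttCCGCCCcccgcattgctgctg
Syt1: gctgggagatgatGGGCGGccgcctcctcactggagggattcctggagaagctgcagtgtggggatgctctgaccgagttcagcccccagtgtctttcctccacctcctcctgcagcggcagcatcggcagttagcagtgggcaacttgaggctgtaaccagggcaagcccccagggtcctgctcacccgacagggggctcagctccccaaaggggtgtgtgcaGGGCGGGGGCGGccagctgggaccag
Cplx2: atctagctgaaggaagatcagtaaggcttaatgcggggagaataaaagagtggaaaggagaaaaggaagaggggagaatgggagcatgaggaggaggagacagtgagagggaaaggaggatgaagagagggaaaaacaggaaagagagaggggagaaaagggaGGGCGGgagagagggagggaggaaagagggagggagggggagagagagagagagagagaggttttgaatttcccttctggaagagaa
Slc18a2: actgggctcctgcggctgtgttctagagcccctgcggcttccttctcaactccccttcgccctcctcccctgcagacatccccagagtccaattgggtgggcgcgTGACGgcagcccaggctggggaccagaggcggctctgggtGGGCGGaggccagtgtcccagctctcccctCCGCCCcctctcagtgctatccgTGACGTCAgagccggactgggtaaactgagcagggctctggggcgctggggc

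The Syp window held 4 GC boxes and the Syt1 window 3, and neither held the response element or its core. The Cplx2 window held 1 GC box and 2 CG dinucleotides, against a median of 19 in the windows of the set. The Slc18a2 window was the only one of the 4 with the full response element, which began 52 bases before the start, and it held 2 GC boxes and 3 matches to the core, of which 2 lie within the full element. Windows were found for 37 of the 43 genes, and Snap25 was not among them. Of the 38 windows (Unc13b has 2 of them), 29 held a GC box, 4 the full response element, 11 its core and 0 a TATA box. The GC box and the core were thus in 76.3% and 28.9% of the windows. Among 33465 windows of the same length, the shares were 30.5% for the GC box, 1.59% for the response element, 18.2% for its core and 12.9% for the TATA box. The windows of the set had a median GC content of 65.4% against 51.2%. These letter matches are a description and were not tied to binding or activity in these cells.

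Among genes for proteins of the vesicle surface, lower genes outnumbered higher ones. Of the 6 vesicle genes compared in hippocampal cells 5 were lower and 0 higher, and of 7 in olfactory bulb cells 4 were lower and 0 higher, with median log2 differences of -1.59 and -1.15. Both medians were below 0 under every alternative setting. Over all genes 26.8% were lower and 21.9% higher in hippocampal, and 20.0% and 26.9% in olfactory bulb cells. Syp encodes synaptophysin, an abundant membrane protein of the vesicle. Its levels were -2.60 in hippocampal stem cells, -2.95 in olfactory bulb stem cells, -5.84 in hippocampal neurons and -5.70 in olfactory bulb neurons. Both stem cell values lay above both neuron values, and the hippocampal neuron array was not well above background. Syp was thus at least 8.49-fold lower in hippocampal and 6.72-fold lower in olfactory bulb neurons than in the stem cells, and it passed the additive limma fit (adjusted p = 0.00302).

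Rab3a encodes the small GTPase that marks vesicles ready for release. It stood at 0.56 and -0.10 in hippocampal and olfactory bulb stem cells and at -1.27 and -2.70 in the corresponding neurons. It was lower in both sources, by 3.56-fold and 6.09-fold, and passed the limma fit (adjusted p = 0.0115). Of the SV2 glycoproteins, which are found on vesicles of nerve and endocrine cells, Sv2a had levels of 1.87, 1.12, 0.41 and -0.03 in the same order. It was 2.74-fold and 2.22-fold lower, and stayed lower by 2-fold or more under every alternative setting in both sources. The difference missed the threshold in the limma fit (adjusted p = 0.0609). It passed with normexp background correction, with median scaling and over genes well above background on all 4 arrays. Sv2c, at -3.96 and -4.08 in stem cells and not well above background in neurons, was at least 3.32-fold and 5.05-fold lower and passed it (adjusted p = 0.00489). With normexp background correction the olfactory bulb difference of Sv2c was -0.71, and the fit did not call it.

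The synapsins, which cross-link vesicles in the reserve pool, were dim. Syn1 was at -3.24, -4.06, -4.34 and -4.58 on the arrays in that order. That is 2.15-fold lower in hippocampal neurons and 1.44-fold lower in olfactory bulb neurons, and the fit did not call it (adjusted p = 0.20). Syn2 was well above background only in olfactory bulb neurons, at -5.91, and its limma call for state (1.5 log2 units higher in neurons, adjusted p = 0.0492) rests on 3 arrays at background. The call was lost under each alternative except the series value table, which holds the same values. Sypl1, the relative of synaptophysin found in many tissues, was bright on every array, at 1.5, 2.10, 2.28 and 2.17, and its differences stayed under 2-fold.

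Most synaptotagmins, the family of calcium sensors, were also lower on the neuron arrays. In each source 5 of the 7 synaptotagmins compared were lower, beside 26.8% of all genes in hippocampal and 20.0% in olfactory bulb cells. None was higher in the hippocampal cells, and Syt6 was higher in those of the olfactory bulb. The medians were -1.75 and -2.41, and stayed below 0 under every alternative setting. Syt1 encodes the fast calcium sensor of vesicle fusion. It was at -3.04 in hippocampal and -1.95 in olfactory bulb stem cells and at -7.64 and -6.99 in the neurons, where it was not well above background. This made it at least 6.27-fold and 22.1-fold lower, and the limma fit gave it the lowest adjusted p of the set (0.000369). A second Syt1 probe, dimmer on both stem cell arrays, was likewise well above background on them and not on the neuron arrays.

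Syt3, a synaptotagmin with high calcium affinity, was measured on all 4 arrays, at -2.82, -3.24, -5.46 and -6.31. Its neurons were 6.22-fold and 8.36-fold below the stem cells (limma adjusted p = 0.00362). Syt11, a family member whose first C2 domain does not bind calcium, was brighter in stem cells, at 0.52 and -0.03, than in neurons, at -1.56 and -2.65. It was 4.25-fold and 6.15-fold lower (adjusted p = 0.00807). The related Syt4 was at -4.57 and -4.0 in stem cells and not well above background in neurons, which is at least 2.06-fold and 5.33-fold lower (adjusted p = 0.0382). Syt9, at -3.94 and -5.39 in stem cells, was at least 3.37-fold and 2.03-fold lower (adjusted p = 0.0255). The fit called neither Syt4 nor Syt9 with normexp background correction or with quantile normalization. With normexp Syt4 was under 2-fold in both sources, at -0.79 and -0.77, and Syt9 in olfactory bulb cells, at -0.22. Spike-in scaling brought the hippocampal difference of Syt4 to -0.60. Older names of Syt5 and Syt9 in RefSeq are exchanged, and the symbols here follow the accessions.

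Syt2 and Syt7 were not well above background on any array and were not compared. Syt5 stood at 0.08, -0.65, 0.16 and -0.06, with differences of 1.06-fold and 1.51-fold. Syt6 was at -4.69 in hippocampal stem cells, -4.87 in hippocampal neurons and -4.18 in olfactory bulb neurons, and was not well above background in olfactory bulb stem cells. It was therefore at least 2.28-fold higher in the olfactory bulb neurons, a call that 4 of 7 alternative settings did not keep.

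SNARE genes were split. Of 10, 2 were higher and 1 lower in hippocampal neurons and 4 were higher and 2 lower in olfactory bulb neurons. Over all genes 21.9% were higher and 26.8% lower in hippocampal, and 26.9% and 20.0% in olfactory bulb cells. The medians of the SNARE genes were 0.25 and 0.57. The sign of the medians turned to -0.20 in hippocampal cells with median scaling, to -0.46 for the olfactory bulb when spike-ins set the scale, and to -0.13 in hippocampal cells over the 9 genes well above background throughout. Snap25 encodes the SNARE of the neuronal and endocrine cell membrane. Its levels were -4.93 in hippocampal stem cells, -3.59 in olfactory bulb stem cells, -0.96 in hippocampal neurons and -0.51 in olfactory bulb neurons, each well above background. Both neuron values lay above both stem cell values. Snap25 was 15.6-fold higher in hippocampal and 8.43-fold higher in olfactory bulb neurons, and passed the limma fit (adjusted p = 0.00194). Its hippocampal stem cell level lay near the lowest level marked well above background on that array, -5.41. With normexp background correction the log2 differences were 2.02 and 2.31, so the size of the change and the order of the sources depended on the setting. The partners of Snap25 in the neuronal SNARE complex were not called in either source. Stx1a, the neuronal syntaxin, was at -3.84, -4.10, -4.68 and -4.39 in the order used above, with log2 differences of -0.84 and -0.30. Vamp2, the vesicle SNARE, was at 1.59, 1.20, 0.67 and 0.49, with differences of -0.91 and -0.71 on its brightest probe and -0.93 and -0.88 on the other.

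Of the SNAREs found in many tissues, Vamp3, the cellubrevin of recycling vesicles, was at 5.74 and 5.47 in stem cells and 6.66 and 6.65 in neurons, and Snap29, a SNARE of endosomes and autophagosomes, at 1.61, 1.51, 2.42 and 2.73. Both were higher by under 2-fold in hippocampal neurons (0.92 and 0.82) and by over 2-fold in olfactory bulb neurons (1.19 and 1.22). Their adjusted p in the limma fit was 0.107 and 0.118. With normexp background correction and with quantile normalization the fit called Vamp3 higher. Snap23, the partner of Stx4 in constitutive secretion, differed by 0.64 and 0.91, and Stx4 by -0.13 and 0.23. Stx2, a syntaxin also known as epimorphin, went the other way, from 0.00 and -0.45 in stem cells to -1.46 and -1.52 in neurons. It was 2.74-fold and 2.10-fold lower (limma adjusted p = 0.0668). The fit called Stx2 lower with normexp background correction, with median scaling and over genes well above background on all 4 arrays.

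Stx3, a syntaxin of the apical epithelial membrane and of ribbon synapses, was not well above background in either stem cell sample and stood at -2.92 and -4.06 in hippocampal and olfactory bulb neurons. It was at least 5.64-fold and 3.76-fold higher and passed the limma fit (adjusted p = 0.000941). With normexp background correction both differences were under 2-fold, at 0.46 and 0.68, and the fit did not call Stx3. The olfactory bulb difference was also under 2-fold with spike-in scaling, at 0.88. Vamp1, a vesicle SNARE of motor and some central neurons, was dim throughout, at -4.90, -4.35, -5.26 and -5.61. It was 2.40-fold lower in olfactory bulb neurons and 1.28-fold lower in hippocampal neurons, and its other probe gave 0.67 in olfactory bulb cells from a stem cell spot that was not well above background.

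Among the SNARE cofactors, complexin 2 stood apart from the rest. Cplx2 was at -3.96 and -3.87 in hippocampal and olfactory bulb stem cells and at -1.69 and -2.01 in neurons. It was 4.83-fold and 3.64-fold higher, and passed the limma fit (adjusted p = 0.0127). The fit did not call Cplx2 with quantile normalization or with spike-in scaling, where the olfactory bulb difference was 0.83. Cplx1, the other complexin of central synapses, was near background, at -4.95, -5.27 and -5.27 where it was well above background. Nsf, the ATPase that separates used SNARE complexes, differed by -0.66 and -0.33, and its adaptor Napa by -0.35 and 0.14.

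Of 4 active zone genes compared in each source, 1 was lower and 0 higher. Over all genes 26.8% were lower and 21.9% higher in hippocampal, and 20.0% and 26.9% in olfactory bulb cells. Bsn, which encodes the scaffold bassoon, had its highest level in hippocampal stem cells, at -0.71, and lay at -2.11, -1.84 and -2.17 in olfactory bulb stem cells, hippocampal neurons and olfactory bulb neurons. It was 2.19-fold lower in hippocampal neurons than in their stem cells and 1.05-fold lower in olfactory bulb neurons. Rims2, a scaffold that links Rab3 to calcium channels, was at -2.95 and -2.48 in hippocampal stem cells and neurons and at -2.19 and -3.43 in the olfactory bulb cells. The hippocampal difference was 0.47 and the olfactory bulb difference -1.24. The priming factor genes Unc13a and Unc13b differed by -0.61 and -0.24, and by at least 0.17 and 0.09.

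The vesicular transporters set which transmitter a vesicle holds. Slc18a2 encodes the monoamine transporter VMAT2, which loads dopamine, noradrenaline, serotonin and histamine. It was not well above background in hippocampal stem cells (-6.28) and stood at -4.06 in olfactory bulb stem cells, -3.72 in hippocampal neurons and 1.20 in olfactory bulb neurons. The olfactory bulb neurons lay far above the other 3 samples. It was at least 3.22-fold and 38.3-fold higher and passed the limma fit for state (adjusted p = 0.00618), but not under quantile normalization (adjusted p = 0.0843; 2.62e-05 to 0.0843 over the alternatives). The hippocampal difference dropped to 0.15 with normexp background correction and to 0.08 with the mean over probes, so that its call there was lost, whereas the olfactory bulb difference was 4.06 or more under every alternative. A second, dimmer probe was well above background in the olfactory bulb neurons only, at -1.30.

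Slc17a6 encodes the glutamate transporter VGLUT2. It was at -4.99, -5.39, -3.99 and -4.03, and was 2.0-fold and 2.57-fold higher in neurons (limma adjusted p = 0.0800), but these calls depended on the setting. The hippocampal difference was -0.19 with normexp background correction, 0.47 with quantile normalization and 0.54 with median scaling. The olfactory bulb difference was under 2-fold with these settings and with spike-in scaling, at 0.33 to 0.82. Slc32a1, the transporter for GABA and glycine, was level across the 4 arrays, at -1.28, -1.44, -1.49 and -1.52, and its state differences were -0.21 and -0.07.

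Dividing the set by known breadth of expression gave different medians. The 9 genes found in many tissues had medians of 0.64 and 0.23, with 1 higher and 1 lower in hippocampal and 3 higher and 1 lower in olfactory bulb neurons. The neural and endocrine genes had medians of -0.84 over 25 genes and -0.41 over 26, with 4 higher and 11 lower, and 5 higher and 11 lower. Over all genes the medians were -0.32 and 0.08, with 21.9% higher and 26.8% lower, and 26.9% and 20.0%. The difference between the divisions was not tested.

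Other genes of the pathway, listed with the set but not part of it, were counted in the same way. Of vesicle and endocytosis companions, 5 of 28 compared were higher and 10 lower in hippocampal neurons, and 6 of 31 and 9 in olfactory bulb neurons, beside the 21.9% and 26.8%, and 26.9% and 20.0%, of all genes. The limma fit called 5 of 31 higher and 7 lower, beside 19.4% and 12.2% of all genes. Rab3c, a close relative of Rab3a, went from 1.53 and 1.12 in stem cells to -2.20 and -4.48 in neurons. The acetylcholine transporter Slc18a3 went from -1.66 and -2.47 to -5.19 in hippocampal neurons and was not well above background in olfactory bulb neurons, which is a difference of -3.53 and of -3.94 as a bound. Snap91, a clathrin assembly protein of synapses, went from -2.08 and -1.47 to -5.04 and -5.98. The calcium-binding Doc2a, at -2.95 and -3.31 in stem cells, was not well above background in hippocampal neurons and stood at -6.14 in olfactory bulb neurons, a difference of -2.74 as a bound and of -2.82. These 4 genes passed the limma fit (adjusted p from 0.0011 to 0.00271). Upward, the gamma-synuclein gene Sncg differed by 4.32 and at least 4.37, and the vesicle genes Synpr and Rab3b by at least 1.38 and 1.28, and at least 1.17 and 5.34.

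Of other SNAREs and trafficking factors, 3 of 22 were higher and 3 lower in hippocampal neurons and 5 and 2 in olfactory bulb neurons. Over all genes 21.9% were higher and 26.8% lower in hippocampal, and 26.9% and 20.0% in olfactory bulb cells. The limma fit called 2 higher and 1 lower, beside 19.4% and 12.2% of all genes. Vamp8, an endosomal SNARE, was not well above background in stem cells and reached 2.91 and 3.09 in neurons. Stxbp2, the Munc18 form that works outside neurons, was higher by 1.92 and 2.02, and Vamp5 by 1.03 and 1.52. Vps33a and Gosr1 were lower, with differences of -2.05 and -1.42, and -1.01 and -1.25.

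The second question was whether the tissue of origin set the samples apart within each state, a comparison made within a slide. Among 32 genes compared in stem cells, 3 were higher and 2 lower in the olfactory bulb, 9.38% and 6.25% against 4.17% and 6.97% of 6026 genes. In neurons 1 of 31 was higher and 3 lower, 3.23% and 9.68% against 7.66% and 8.00% of 6999 genes. The medians were -0.31 and -0.06, beside -0.43 and -0.01 over all genes. For source, the limma fit called 0 genes of the set and 0 of all 7111 (smallest adjusted p 0.448); 1 gene of the set, Slc18a2, and 399 of all had an unadjusted p under 0.05.

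**Figure D4:**
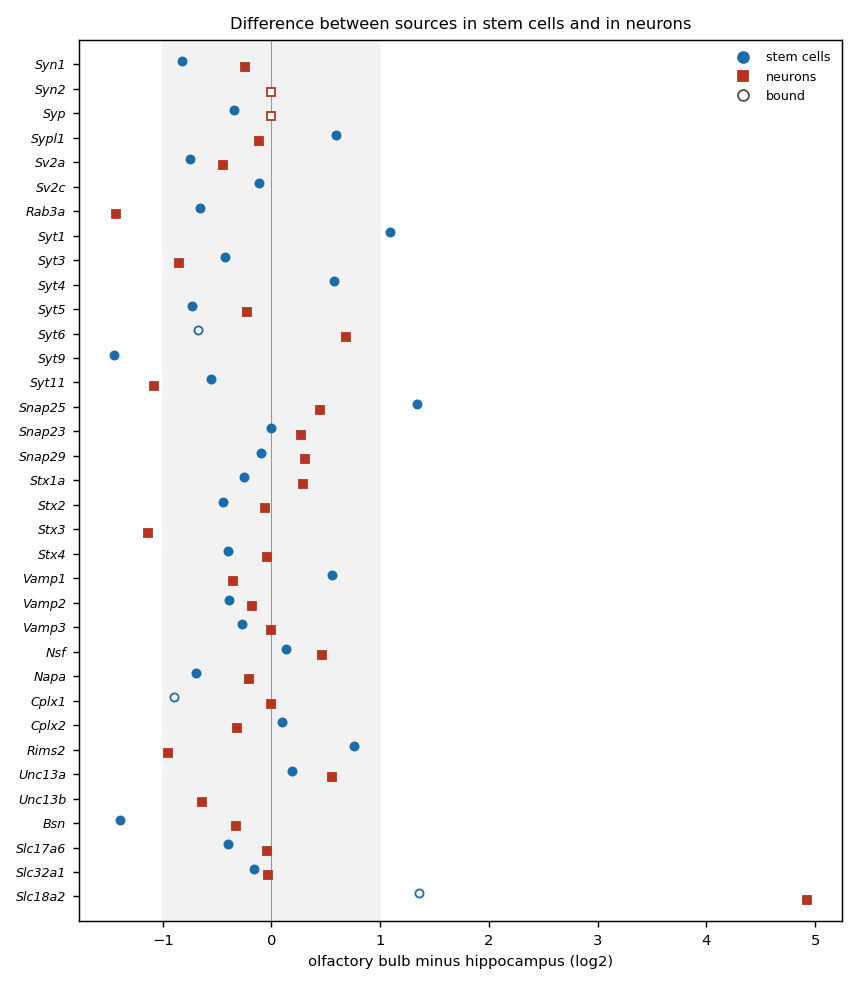
The difference between olfactory bulb and hippocampal cells (log2, horizontal axis) for each gene, with circles for stem cells, squares for neurons, open symbols for bounds and a grey band for differences under 1 log2 unit. Slc18a2 in neurons, at 4.93, is the point far to the right; the other points lie between -1.45 and 1.36.

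Slc18a2 gave the largest source difference of the set. Olfactory bulb neurons were 30.4-fold above hippocampal neurons, and olfactory bulb stem cells at least 2.56-fold above hippocampal stem cells. The estimate of its source term was 3.58 log2 units with an adjusted p of 0.751 in the limma fit, but 0.00163 with normexp background correction and 0.00806 with spike-in scaling, within a range of 0.00163 to 0.892 over the alternatives. On the neuron arrays, 2 of 6 olfactory ensheathing and Schwann cell markers and 3 of 8 astrocyte markers were also higher in the olfactory bulb cells (0 and 1 were lower). Of pericyte and fibroblast markers 2 of 6 were higher and 0 lower, and of oligodendrocyte markers 2 of 6 and 1. Microglia and macrophage markers had 1 of 4 higher and 0 lower, neuron markers 1 of 10 and 4, neural stem and progenitor markers 1 of 5 and 0, and neuroendocrine markers 0 of 7 and 2. Their part in this difference was not tested.

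In stem cells, Snap25 was 2.53-fold and Syt1 2.13-fold higher in the olfactory bulb, while Syt9 was 2.74-fold and Bsn 2.63-fold lower. In neurons, Rab3a was 2.70-fold, Stx3 2.20-fold and Syt11 2.12-fold lower in the olfactory bulb. Snap25, at a difference of 0.45 in neurons, and Bsn, at -0.33, did not reach 2-fold there. None of the 5 calls in stem cells and 2 of the 4 in neurons held at 2-fold under every alternative setting.

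Few genes detected throughout changed differently between the sources. Over the 24 genes detected throughout, the change in olfactory bulb cells minus the change in hippocampal cells ran from -1.71 (Rims2) to 1.07 (Bsn), with a median of 0.29 beside 0.34 over 5495 genes. Only these 2 of the 24 reached 1 log2 unit either way, against 20.6% of the 5495 genes. Genes dim on any array were left out, Slc18a2 with them. Its measured differences were 2.56 in hippocampal and 5.26 in olfactory bulb cells. Those of Syt9 were -4.02 and -1.34, of Syt4 -1.04 and -3.20, and of Unc13b 2.42 and 0.30. Each of these pairs includes signals not well above background, so the gap between the sources is uncertain. The difference of changes could not be tested with 1 array per group.

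**Figure D5:**
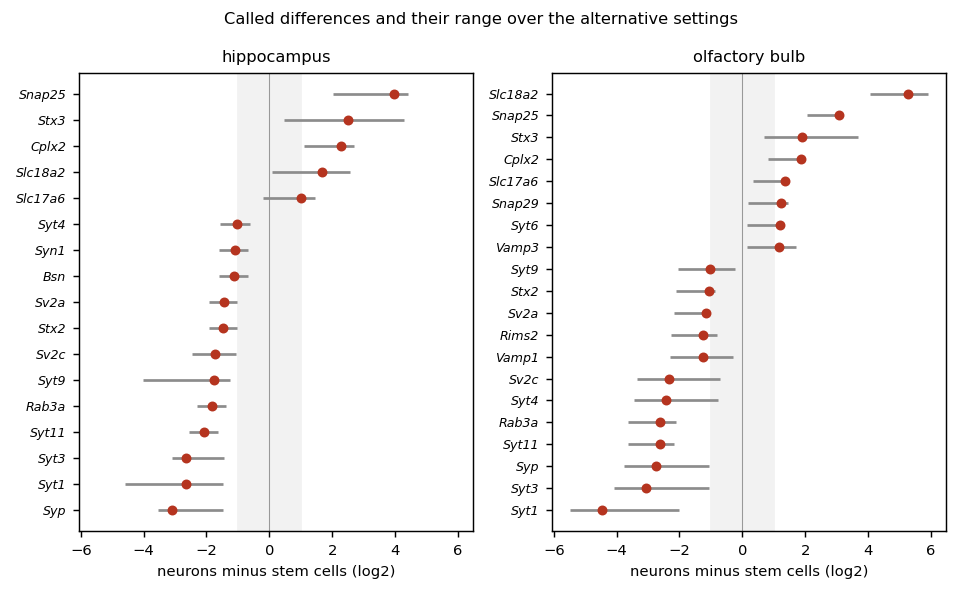
The genes called in hippocampal cells (left) and olfactory bulb cells (right), with the reported difference between neurons and stem cells (log2, red point) and the range over the alternative settings (grey line); the grey band covers differences under 1 log2 unit. Of the 17 genes in the left panel 11 stayed at 2-fold or more under every setting, and of the 20 in the right panel 8 did.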

How the data were processed

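Each of the 4 arrays held 1 pooled RNA sample. The deposited values are spot intensity, which the authors produced with Agilent Feature Extraction 10.5.1.1, as both the submitters' processing notes and the deposited headers state; background was subtracted and spatial trends were removed within an array, and no normalization between arrays is recorded. The series value table held the same intensities as the scanner files (largest difference 0). Of 41012 non-control probes, 254 with an outlier mark on an array were left out. No spot was saturated. The log2 of the processed signal minus each array's 75th percentile was used. Accessions were matched without versions to the RefSeq gene table of GRCr8, for names only, because the headers give rn4 as the design build: of 40758 probes, 10783 had 1 symbol, 0 several and 29975 none. The brightest probe by mean over the arrays stood for a gene. A dim side was set to the lowest signal marked well above background on that array, or to its own signal if higher. The additive fit used limma 3.58.1 in R 4.3.3 on measured values of genes well above background on at least 1 array, and was checked on simulated data; tables were made with Python 3.11.15. The alternatives were normexp with an offset of 50, on median spot signals because no mean signal is in the files, quantile, median and spike-in scaling, stricter and no filters on dim probes, the mean over probes, the series table and call thresholds of 1.5 log2 units and 1.5-fold. The genes, roles and lists were chosen with earlier results of these data known. All genes of the set could be named; of the companion lists, at most 4 in each direction were, ranked by the smaller of their absolute differences in the sources. The number of arrays limits the precision.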

Additional observations from a re-analysis of the deposited data

Results flagged for a closer look

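Among these genes, 2 had state changes of opposite sign in the 2 sources that lay 1 log2 unit or more apart. Rims2 differed by 0.47 in hippocampal and by -1.24 in olfactory bulb cells, a difference of changes of -1.71. For Syt6 the hippocampal change was -0.18 and the olfactory bulb change at least 1.19, a difference of at least 1.37. Syt6 was not well above background in olfactory bulb stem cells and stood at -4.18 or less on every array. Neither difference was tested, because each change rests on 1 array per state.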

How the results depend on the processing

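Of the genes called between neurons and stem cells, 16 of 17 in hippocampal and 20 of 20 in olfactory bulb cells kept their sign under every alternative setting that gave a value; between sources, 4 of 5 in stem cells and 4 of 4 in neurons did. The exceptions were Slc17a6 in hippocampal cells, at -0.19 with normexp, and Slc18a2 in stem cells, at 0 with the mean over probes. Normexp adds an offset of 50, which by its construction shrinks the differences of dim genes; with it 2 genes were higher in hippocampal neurons, 5 higher and 6 lower in olfactory bulb neurons, 0 higher and 1 lower in olfactory bulb stem cells, and 1 lower in olfactory bulb against hippocampal neurons. Spike-in scaling gave 9 higher in hippocampal neurons, 2 higher and 19 lower in olfactory bulb neurons, 8 higher and 0 lower in olfactory bulb stem cells and 7 lower between the neurons; median scaling gave 4 higher in olfactory bulb neurons, and quantile normalization 5 lower between the neurons. The cause of these moves was not tested. Restricting to genes well above background on all 4 arrays, which removes genes, gave 3 higher and 7 lower in hippocampal, 5 and 7 in olfactory bulb neurons, 1 and 1 between stem cells, 0 higher between neurons, and 8 state calls in the limma fit against 13; no filter gave 2 higher between the neurons. At 1.5 log2 units, 7 were lower in hippocampal neurons, 4 higher and 7 lower in olfactory bulb neurons, and 0 were higher or lower between stem cells and 0 lower between neurons; at 1.5-fold, 9 were higher in hippocampal neurons, 5 higher and 9 lower between stem cells, and 2 higher and 6 lower between neurons. For source, limma called 1 gene with normexp and 1 with spike-in scaling against 0. Dim signals limit several genes. Syn2 was well above background on 1 array, and Sv2c, Syt1, Syt4, Syt9, Stx3 and Unc13b on 2. Syt6 and Cplx1 were so on 3 arrays and Syn1 and Vamp1 on all 4, at levels of -3.24 or less.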

Other observations

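Genes of dense core granules, the second kind of regulated vesicle, were more often higher than lower on the neuron arrays. Of 15 measured, 8 were higher and 3 lower in each source, and the medians were 1.13 and 1.84. Over all genes 21.9% were higher and 26.8% lower in hippocampal and 26.9% and 20.0% in olfactory bulb cells. The limma fit called 8 of the 15 higher and 1 lower, beside 19.4% and 12.2% of all genes. Cpe, the carboxypeptidase of prohormone processing, was higher by at least 10.11 and by 9.30 log2 units, and the granin gene Scg2 by 6.76 and at least 4.82. Cadps, the priming factor of dense core vesicles, was at -1.62 and -2.44 in hippocampal and olfactory bulb stem cells and at 1.64 and 2.19 in the neurons, and the prohormone convertase gene Pcsk1 was higher by at least 4.18 and 3.03. Downward, the granins Scg3 and Chga differed by -2.59 and -1.54, and by -1.33 and -1.03. Scg3 passed the limma fit (adjusted p = 0.0179) and Chga did not (adjusted p = 0.0789).

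Probes of the same gene moved together for some genes and not for others. The Vamp1 probes gave -1.26 and 0.67 in olfactory bulb cells. Those of Slc18a2 gave measured differences of 2.56 and 0.61 in hippocampal cells, and of 2.22 and -0.31 between the stem cells. Each of these pairs includes signals not well above background. For Snap23, 2 probes gave olfactory bulb differences of 0.91 and 0.79, while the third gave 0.00 and, in hippocampal cells, -0.06 against 0.64 and 0.71. The probes of Sypl1 differed by 0.78 and 0.82 in hippocampal and by 0.07 and 0.08 in olfactory bulb cells, and those of Snap29 by 0.82 and 0.96, and by 1.22 and 1.46.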
